A study of Hydra vulgaris with 12 samples.

Results

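Animals with a knockdown of hywi were compared with their wild-type siblings by mRNA-seq in the AEP strain of Hydra vulgaris, a freshwater polyp whose tissue is renewed by epithelial and interstitial stem cells. It used 6 of the 12 samples of the series, chosen by their labels: 3 hywi knockdown libraries and 3 wild-type sibling libraries. Knockdown animals were offspring of the hywi RNAi-1 line with the transgene, which is driven in epithelial stem cells and encodes a hairpin targeting hywi. Wild-type siblings were offspring of the same line without the transgene. Both were collected 4 days after hatching and grown at 18 °C, and each library pooled 10 whole animals. The knockdown is thus represented by 1 transgenic line, and each library also held RNA of cells in which the hairpin was not driven. A library is called here by its group and its replicate number, and libraries with the same number were taken as a pair. The antisense load of each transcript came from small RNA bound to the PIWI protein Hywi in whole wild-type animals and in colchicine-treated animals of the cnnos1::GFP line, which were depleted of interstitial cells, with 1 library of 225 animals each.

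PIWI proteins carry short RNAs, the piRNAs, that guide them to complementary transcripts, and many of those transcripts derive from transposons. In the ping-pong cycle, an antisense piRNA in one PIWI protein directs the cutting of a sense transcript, and the cut end becomes a sense piRNA in a partner PIWI protein. In Hydra the partners are Hywi and Hyli, and both are made in somatic stem cells as well as in the germ line. A transcript with many antisense Hywi-bound reads is therefore one that the pathway could recognise, and such reads are called its antisense load below. The files give transcripts by number only, and 0 of 38747 matched the reference gene table. The hywi transcript, transposon families and cell type markers were for that reason not analysed here, so neither the depth of the knockdown nor the cell makeup of the libraries was checked.

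The knockdown libraries held 27039752 to 27344964 estimated counts and the wild-type libraries 22236877 to 27551244. All levels below are in CPM, the count relative to the library's TMM-scaled total. They are not divided by transcript length, so a class of level holds long and short transcripts alike. The libraries differed within the groups. The 100 most abundant transcripts took 22.4% of the counts in knockdown 1 and 24.8% in knockdown 2 and 3, against 24.2%, 25.6% and 27.1% in wild type 1, 2 and 3. Transcripts with over 3 counts numbered 24760 in knockdown 1, the most, and 22512 in wild type 3, the fewest. Deviations from the group means correlated by 0.71 between knockdown 1 and wild type 1 across transcripts, and by 0.35 in each of the other same-numbered pairs. They correlated by 0.29 between knockdown 2 and wild type 3, and by 0.20 between knockdown 3 and wild type 2. Results are therefore given for each pair, and without it where that changes them.

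Transcripts with a high antisense load stood higher in the knockdown than in the wild-type sibling in all 3 pairs. Over the 15809 transcripts with a mean of at least 1 CPM in the 6 mRNA libraries, 1038 had at least 100 CPM of antisense reads in the colchicine-treated Hywi library. Their level, as the mean deviation from each transcript's own mean over the 6 libraries, was 0.21, 0.00 and 0.09 on the log2 scale in knockdown 1, 2 and 3. It was 0.05, -0.10 and -0.25 in wild type 1, 2 and 3. The groups overlapped, since wild type 1 stood above knockdown 2. Wild type 3 was the lowest of the 6 libraries and knockdown 1 the highest. The knockdown libraries averaged 0.10 ± 0.10 and the wild-type libraries -0.10 ± 0.15 (log2 scale, SD, n = 3 each). In bulk RNA of whole animals, more cells of a type cannot be told apart from more RNA per cell.

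**Figure D1:**
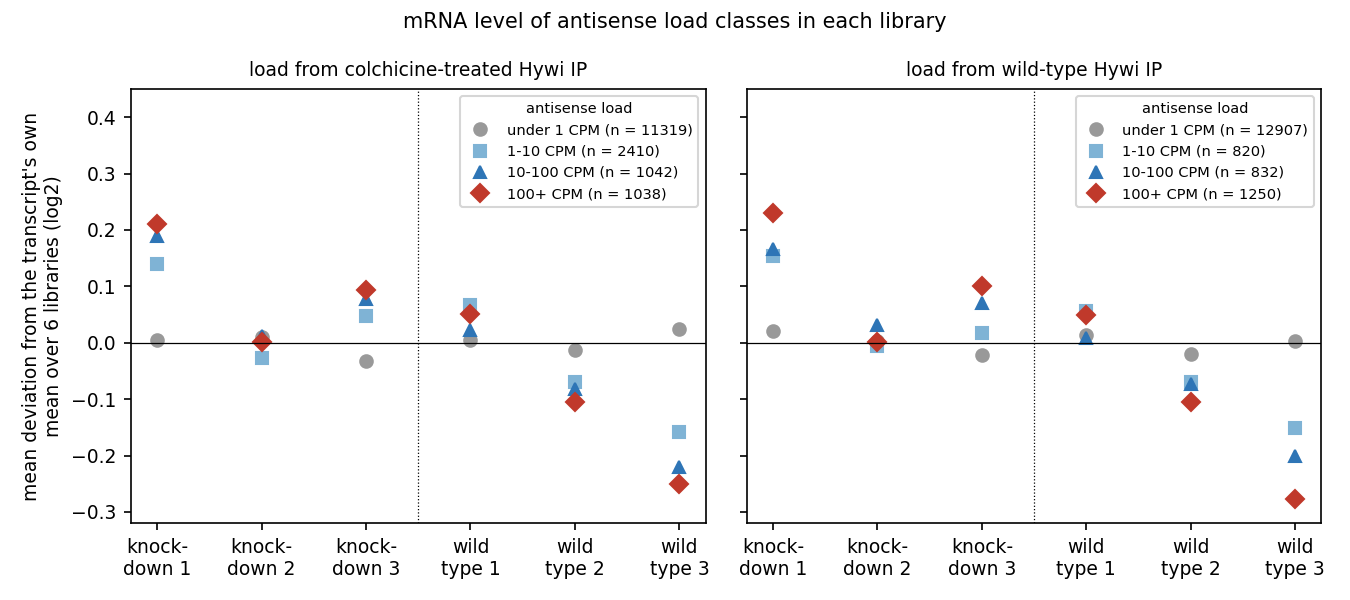
Mean deviation of each library (log2 scale) from each transcript's own mean over the 6 libraries, for 4 classes of antisense load in the colchicine-treated (left) and wild-type (right) Hywi library, with knockdown libraries left of wild-type libraries. The class of 100 CPM and over lies at 0.21, 0.00 and 0.09 in the knockdown against 0.05, -0.10 and -0.25 in wild-type siblings in the left panel, and the class under 1 CPM stays within 0.04 of 0.

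Set against its pair, this class had a median log2 ratio of knockdown over wild-type sibling of 0.16, 0.08 and 0.37 in pairs 1, 2 and 3, taken on CPM plus 0.5. Of its 1038 members, 773, 649 and 899 lay above 0 in the 3 pairs. The 11319 transcripts with under 1 CPM of antisense reads had medians of -0.04, -0.02 and -0.11. Over all 15809 transcripts the medians were -0.01, -0.01 and -0.03. The classes between lay in order of load in every pair. With 10 to 100 CPM (1042 transcripts) the medians were 0.13, 0.07 and 0.31. With 1 to 10 CPM (2410 transcripts) they were 0.03, 0.00 and 0.22. Scaling by library totals made the median of the class under 1 CPM positive in pairs 1 and 3 (0.04 and 0.03) and left that of 100 CPM and over positive in all 3 pairs (0.23, 0.09 and 0.50). That scaling added 0.15 to every log2 ratio of pair 3 before the pseudocount, so differences between classes are given next.

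The difference between the classes of at least 100 and under 1 CPM was 0.19, 0.10 and 0.49 in pairs 1, 2 and 3, with a mean of 0.26 ± 0.20 (log2, SD, n = 3 pairs). The mean was larger than the SD between pairs, and pair 3 gave the largest difference. Without pair 3 the mean was 0.15. No test was made, because an exact two-sided sign-flip test of 3 pairs cannot give a p under 0.25. The size depended on which wild-type library was used. The mean of the 3 knockdown libraries gave a difference of 0.06 against wild type 1, 0.24 against wild type 2 and 0.46 against wild type 3. Of the 9 combinations of a knockdown and a wild-type library, knockdown 2 over wild type 1 was the only negative one, at -0.08. Over all 1840 transcripts with at least 100 CPM of antisense reads, whatever their mRNA level, the share of mRNA counts was 0.882%, 0.794% and 0.746% in knockdown 1, 2 and 3, against 0.744%, 0.676% and 0.561% in wild type 1, 2 and 3. These shares did not overlap between the groups, by a margin of 0.746% against 0.744%. Over the 1959 transcripts with at least 100 CPM in the wild-type Hywi library they did overlap, at 0.930%, 0.698% and 0.774% in knockdown 1, 2 and 3, against 0.741%, 0.637% and 0.513% in wild type 1, 2 and 3.

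The load measured in whole wild-type animals gave nearly the same log2 ratios. Of the 15809 transcripts, 1250 had at least 100 CPM of antisense reads in the wild-type Hywi library, with median log2 ratios of 0.16, 0.09 and 0.40 in pairs 1, 2 and 3. Their difference from the 12907 transcripts under 1 CPM was 0.19, 0.11 and 0.48, with a mean of 0.26 ± 0.20 (log2, SD, n = 3 pairs), and 0.15 without pair 3. Most loaded transcripts were loaded in both Hywi libraries. The 1762 with at least 10 CPM in both had medians of 0.15, 0.09 and 0.38. The 122 with at least 10 CPM in colchicine-treated and under 1 CPM in wild-type animals had medians of 0.08, -0.01 and 0.09. The 26 loaded in wild-type animals only had medians of 0.07, 0.01 and 0.22. The last 2 sets are small, and their difference from the set loaded in both was not tested.

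Among transcripts with at least 10 CPM of load, the amount of load was only weakly related to the change. Across all 15809 transcripts the Spearman correlation of colchicine-treated load with the log2 ratio was 0.21, 0.09 and 0.45 in pairs 1, 2 and 3. Across the 2080 transcripts with at least 10 CPM it was 0.04, 0.06 and 0.10. These are descriptions across transcripts that share their libraries and are not independent replicates.

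Wild-type mRNA level also went with the change. To keep counting error from tying the 2 together, the level used for a pair was the mean of the wild-type libraries of the other 2 pairs. Transcripts of 100 CPM and over (1741 to 1788 by pair) had median log2 ratios of -0.11, -0.04 and -0.19 in pairs 1, 2 and 3, and 19.6%, 32.9% and 28.8% of them lay above 0. Those of 10 to 100 CPM (7375 to 7502) had medians of -0.02, -0.02 and -0.09, which turned positive in pairs 1 and 3, at 0.06 and 0.05, when libraries were scaled by their totals. Those of 1 to 10 CPM (6226 to 6502) had medians of 0.07, 0.03 and 0.12, and those of 0.1 to 1 CPM (8886 to 9007) of 0.08, 0.01 and 0.11. The lowest class stood above the highest by 0.20, 0.05 and 0.29 in pairs 1, 2 and 3, with a mean of 0.18 ± 0.13 (log2, SD, n = 3 pairs). That mean was 0.11 without pair 3. The pseudocount shrinks ratios of the lowest class, and a pseudocount of 0.1 CPM gave a mean of 0.25.

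Since loaded transcripts were mostly of low level, load was compared within classes of level. Among transcripts of 1 to 10 CPM, those with at least 10 CPM of colchicine-treated antisense reads (1711 to 1814 by pair) had median log2 ratios of 0.15, 0.08 and 0.35 in pairs 1, 2 and 3. Those of the same level with under 1 CPM of antisense reads had medians of 0.03, 0.01 and -0.01. Among transcripts of 10 to 100 CPM the loaded ones (191 to 228) had medians of 0.08, 0.06 and 0.35, and the unloaded ones -0.04, -0.02 and -0.13. Between 0.1 and 1 CPM the 2 kinds differed by 0.07, 0.01 and 0.09. Only 15 to 17 loaded transcripts reached 100 CPM, too few for the average. Over the other 3 levels the loaded transcripts stood above the unloaded ones by 0.10, 0.05 and 0.31 in pairs 1, 2 and 3. The mean was 0.16 ± 0.14 (log2, SD, n = 3 pairs), and 0.08 without pair 3. With the load of the wild-type Hywi library it was 0.11, 0.07 and 0.32.

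**Figure D2:**
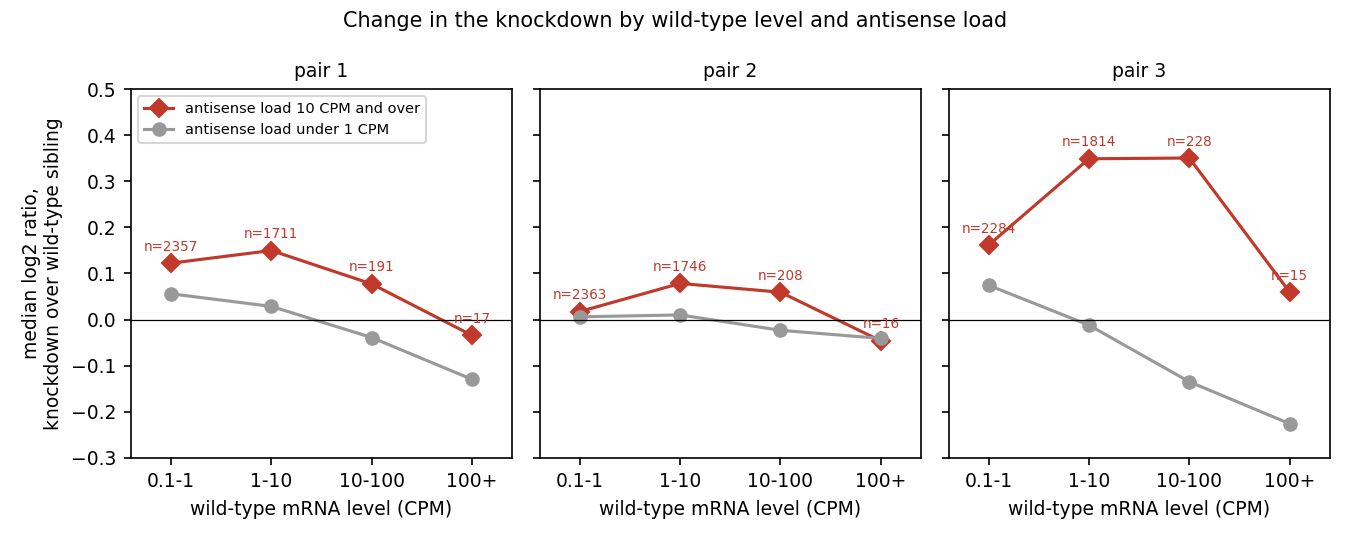
Median log2 ratio of knockdown over wild-type sibling in each pair against the wild-type mRNA level (CPM, from the wild-type libraries of the other 2 pairs), for transcripts with at least 10 CPM (diamonds, with their number) and under 1 CPM (circles) of antisense reads in the colchicine-treated Hywi library. Loaded transcripts of 1 to 10 CPM lie at 0.15, 0.08 and 0.35 in pairs 1, 2 and 3, and unloaded ones at 0.03, 0.01 and -0.01.

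Single transcripts past the threshold formed a different picture from this broad shift. In edgeR's quasi-likelihood test with the replicate number as a block, 231 of 19683 tested transcripts were called higher in the knockdown (1.17%) and 18 were called lower (0.0914%), at a Benjamini-Hochberg adjusted p under 0.05. Without the block edgeR called 0 in either direction, and its smallest adjusted p was 0.875. Before adjustment, 577 higher and 141 lower transcripts had a p below 0.05 in that fit. If nothing had changed, a share of 0.05 of the 19683 would pass by chance, which is more than both counts together. These counts are therefore not read as changes. DESeq2 with the block called 153 higher (0.777%) and 41 lower (0.208%) of the same 19683. It gave no adjusted p for 2290 of these, which could therefore not be called. It shared 147 of the higher calls, 63.6% of edgeR's and 96.1% of its own, and 16 of the lower ones. Each call by edgeR with the full set of libraries therefore needed the pairing by number.

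Over all levels together, the share called was near the background among transcripts with antisense load. Of the 231, 37 had at least 10 CPM in the colchicine-treated Hywi library, or 1.12% of the 3311 tested transcripts of that load against 1.17% of all tested. In the wild-type Hywi library these were 41 of 3344, or 1.23%, and 27 of 1651, or 1.64%, at 100 CPM and over. Another 145 of the 231 had under 1 CPM in the colchicine-treated Hywi library, 1.10% of the 13147 tested. The 49 with 1 to 10 CPM made up 1.52% of 3225. Of the 18 lower transcripts, 0 had 10 CPM or more in either Hywi library. Of all tested, 16.8% did in the colchicine-treated and 17.0% in the wild-type one. In the colchicine-treated one 5 had 1 to 10 CPM and 13 had less, against 16.4% and 66.8% of all tested. At 10 to 100 CPM of wild-type mRNA, where 14 of the 18 lay, only 205 of 7449 tested carried at least 10 CPM there. The 0 is therefore not read as a lack of load, and it was not tested. The fitted change was 2-fold or more in 155 of the 231 higher transcripts and in 1 of the 18 lower ones. Its median was 1.02 for the 37 loaded higher transcripts and 1.51 for the 145 unloaded ones (log2 scale), and the difference was not tested.

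For the calls, wild-type level was the mean of the 3 wild-type libraries, which also entered the test, so counting error can tie the 2 together. By this level, 44 of the 231 higher transcripts averaged under 1 CPM (1.07% of 4103 tested) and 99 were at 1 to 10 CPM (1.56% of 6353). Another 85 were at 10 to 100 CPM (1.14% of 7449) and 3 at 100 CPM and over (0.169% of 1778). A transcript under 1 CPM in wild-type siblings may have passed the filter on low counts through the knockdown libraries alone, so the first of these counts is a description only. Of the 18 lower transcripts, 14 were at 10 to 100 CPM, or 0.188% of those tested at that level against 0.0914% of all, a difference that was not tested. At 10 to 100 CPM of mRNA the share called higher differed with load. It was 6 of 205 (2.93%) with at least 10 CPM of antisense reads, made up of 5 of 112 with 10 to 100 CPM and 1 of 93 with more. It was 31 of 1254 (2.47%) with 1 to 10 CPM and 48 of 5990 (0.801%) with under 1 CPM. At 1 to 10 CPM of mRNA the 4 classes of load lay between 1.18% and 1.66%. These shares were not tested against each other.

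**Figure D3:**
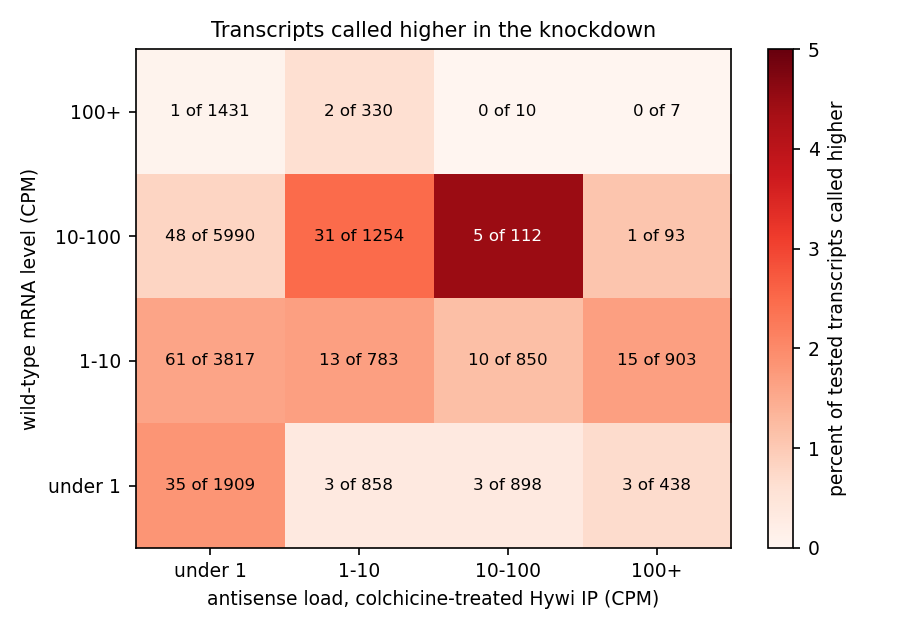
Number of transcripts called higher in the knockdown out of those tested, by wild-type mRNA level (rows, CPM, mean of the 3 wild-type libraries) and antisense load in the colchicine-treated Hywi library (columns, CPM), with the colour giving the percent called. The row of 100 CPM and over holds 3 calls among 1778 transcripts, and the share in columns of at least 10 CPM is 1.12% overall.

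The pairs contributed unequally to these calls, in another order than to the broad shift. All 231 higher transcripts were higher in the knockdown in each pair, with median log2 ratios of 1.33, 1.20 and 0.64 in pairs 1, 2 and 3. At least 2-fold differences were seen for 166 in pair 1, 137 in pair 2 and 45 in pair 3, and for 40 in every pair. Pair 3 gave the smallest ratio for 182 of the 231, whereas it gave the largest difference between loaded and unloaded transcripts. The 18 lower transcripts had more even medians of -0.66, -0.55 and -0.54.

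**Figure D4:**
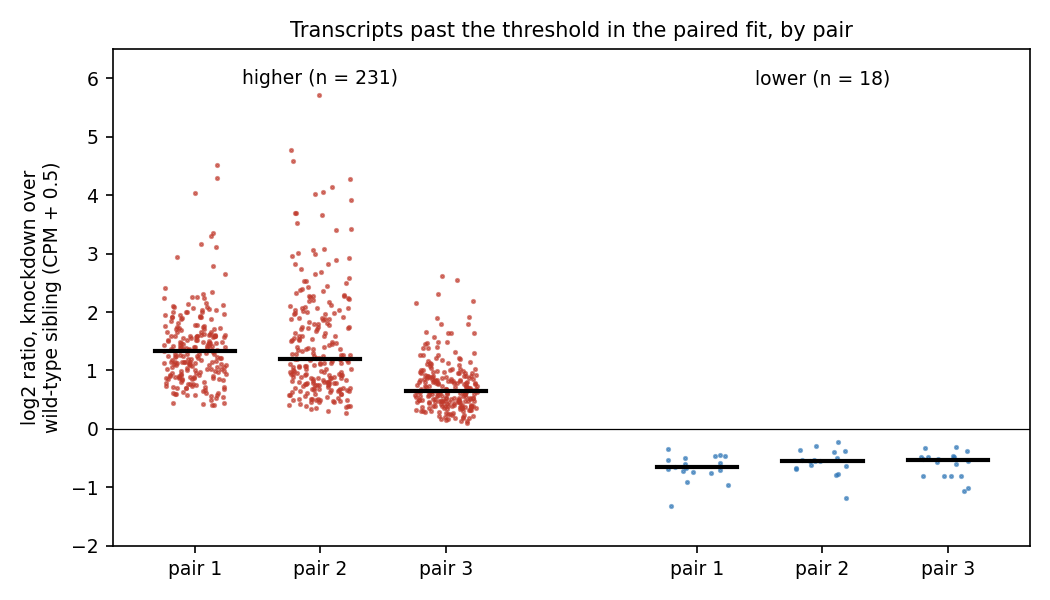
Log2 ratio of knockdown over wild-type sibling (CPM plus 0.5) in each pair for the 231 transcripts called higher and the 18 called lower, with 1 point per transcript and a bar at the median. The medians of the higher transcripts lie at 1.33, 1.20 and 0.64 in pairs 1, 2 and 3, and those of the lower ones at -0.66, -0.55 and -0.54.

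The transcripts called higher also differed between replicate numbers within each group, most of them with number 1 highest. Their median level was 23.1, 11.9 and 6.34 CPM in knockdown 1, 2 and 3, against 8.26, 3.93 and 3.37 CPM in wild type 1, 2 and 3. Knockdown 1 was the highest knockdown library for 227 of the 231, and wild type 1 the highest wild-type library for 219. Both held for 218 of them (94.4%), against 27.5% of all tested transcripts. Knockdown 3 stood below wild type 1 for 181 of the 231 (78.4%), against 9832 of all 19683 tested transcripts. Number 1 was highest in both groups for 137 of the 145 unloaded and 34 of the 37 loaded transcripts, while knockdown 3 stood below wild type 1 for 119 of the 145 (82.1%) and 22 of the 37 (59.5%). The knockdown libraries all lay above the wild-type libraries for 47 of the 231 (20.3%), against 5.2% of all tested transcripts. Of the 18 lower transcripts, 7 lay below in all knockdown libraries, against 3.84% of all tested, and number 1 was highest in both groups for 3. The calls and these counts come from the same values, so the shares are descriptions. The part of these differences between replicate numbers in the calls was not tested. With pair 1 left out the blocked fit called 219 higher and 16 lower transcripts, sharing 165 and 9 with those above, and the fit without the block called 35 higher and 1 lower.

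**Figure D5:**
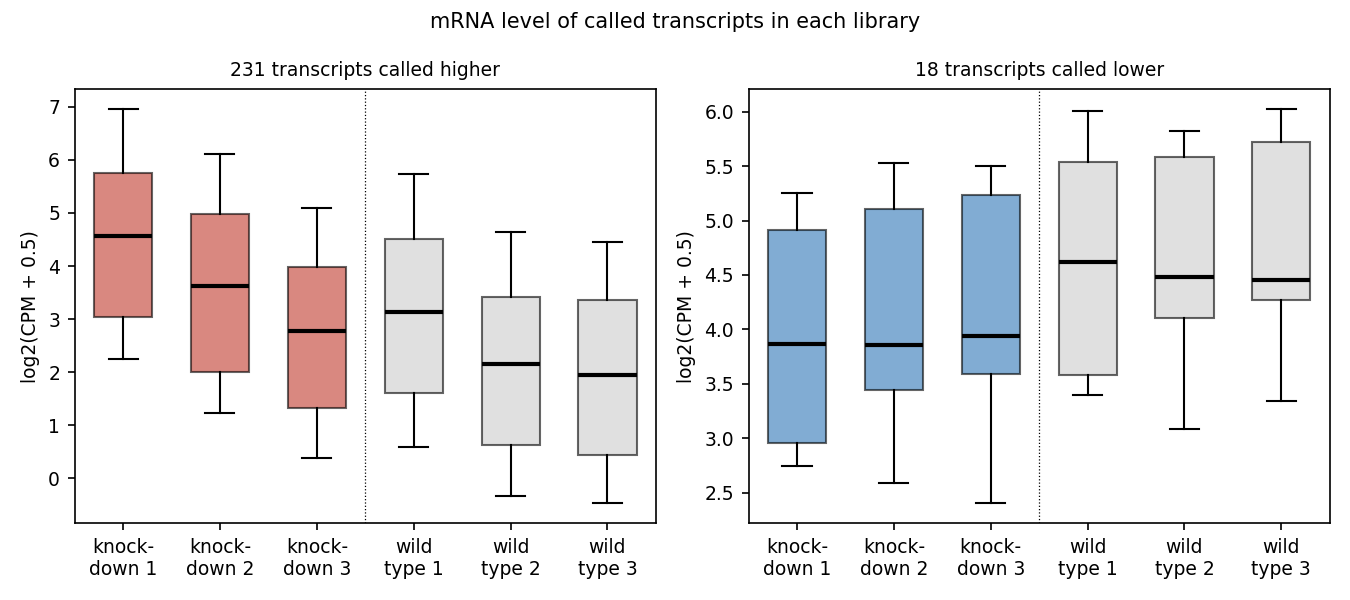
Level (log2 of CPM plus 0.5) in each library of the transcripts called higher (left) and lower (right), with boxes from the lower to the upper quartile, bars at the median and whiskers at the 10th and 90th percentile. The higher transcripts have medians of 23.1, 11.9 and 6.34 CPM in knockdown 1, 2 and 3 and 8.26, 3.93 and 3.37 CPM in wild type 1, 2 and 3, so that number 1 is highest in both groups.

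Single transcripts were named by the largest change in their weakest pair, 1 with and 1 without antisense load in each direction. Transcript t29621aep had 3553 antisense counts in the colchicine-treated Hywi library (214 CPM) and 22.6 in the wild-type one (1.16 CPM). Its mRNA level was 25.6, 11.3 and 3.20 CPM in knockdown 1, 2 and 3, against 11.7, 1.74 and 0.895 CPM in wild type 1, 2 and 3. It was higher in each pair, while wild type 1 stood above knockdown 2 and 3. The blocked edgeR fit gave a log2 fold change of 1.74 ± 0.24 (SE) at an adjusted p of 0.00272.

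Transcript t34423aep had 1.31 antisense counts in the colchicine-treated and 1.09 in the wild-type Hywi library, both under the floor of 3 counts. Its mRNA level was 165, 88.6 and 4.65 CPM in knockdown 1, 2 and 3, against 18.6, 1.19 and 0.340 CPM in wild type 1, 2 and 3. The values spanned a wide range within each group, and knockdown 3 stood below wild type 1. By edgeR with the block it was higher by 4.17 ± 0.42 (log2, SE; adjusted p = 0.000442).

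Of the lower transcripts, t35900aep was the unloaded one, with 2.83 antisense counts in the colchicine-treated Hywi library, and there was no loaded one. Its mRNA level was 43.7, 26.1 and 20.3 CPM in knockdown 1, 2 and 3, against 66.4, 38.5 and 35.7 CPM in wild type 1, 2 and 3. Knockdown 1 stood above wild type 2 and 3, so these groups overlapped too. Its fitted log2 change was -0.66 ± 0.09 (SE), with adjusted p = 0.00396 by edgeR with the block. Unblocked, edgeR gave each of the 3 an adjusted p of 0.875.

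Near the limit of detection, more transcripts were seen in the knockdown alone than in wild-type siblings alone. Of the 13510 with at most 3 counts in every wild-type library, 142 had over 3 counts in every knockdown library. The counts of these 142 were low, with a median of 5.65 in the knockdown libraries and 78 at most. Of the 12627 with at most 3 counts in every knockdown library, 16 had over 3 counts in every wild-type library. At least 10 CPM of colchicine-treated antisense reads were found for 27 of the 142 (19.0%), against 477 of the 13510 (3.53%). Of the 16 it was 1 (6.25%), against 344 of the 12627 (2.72%). Most of the 13510 and of the 12627 were at or under 3 counts in all 6 libraries, so these are not backgrounds of like level. Of all tested transcripts, whose median wild-type level was 8.09 CPM, 16.8% carried that load. At 0.1 to 1 CPM in the wild-type libraries of the other 2 pairs, 2357 of 8886 transcripts did in pair 1. In pairs 2 and 3 it was 2363 of 9004 and 2284 of 9007. These shares were not tested against each other. The knockdown libraries were on average deeper, and the part of depth in the 142 against 16 was not tested. Within both the 13510 and the 12627, 12085 transcripts stayed at or under 3 counts in all 6 libraries. Of these, 281 carried at least 10 CPM of colchicine-treated antisense load.

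Readouts that played no part in the comparison were set beside the calls. Sense-strand reads of the wild-type Hywi library reached 10 CPM, or 28.1 counts, for 105 of the 231 higher transcripts (45.5%), against 25.5% of all tested transcripts. At a wild-type level under 1 CPM these were 8 of 44 (18.2%, against 15.0%), and at 1 to 10 CPM 47 of 99 (47.5%, against 22.2%). At 10 to 100 CPM they were 47 of 85 (55.3%, against 25.0%), and at 100 CPM and over 3 of 3 (against 63.6%). In the colchicine-treated Hywi library the share was 29.9% against 21.9%. Sense reads bound to Hyli reached 10 CPM for 26.0% of the higher transcripts in colchicine-treated animals, against 21.2% of those tested. By mRNA level these were 11.4% against 22.6% under 1 CPM and 29.3% against 25.7% at 1 to 10 CPM. At 10 to 100 CPM they were 29.4% against 11.2%. In wild-type animals the shares over all levels were 19.9% against 17.6%. The degradome, a readout of uncapped RNA ends such as those left by cutting, reached 10 CPM for 38.1% of the higher transcripts in colchicine-treated animals, against 25.0%. That library was shallow, and 10 CPM there is 1.77 counts, below the floor of 3. In the deeper degradome of wild-type animals, where 10 CPM is 7.65 counts, the share was 26.8% against 22.6%. Among transcripts of under 1 CPM of mRNA it was 18.2% against 25.3%. At 1 to 10 CPM of mRNA it was 27.3% against 26.9%, and at 10 to 100 CPM 28.2% against 11.5%. No test was made of these shares.

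Where the 3 pairs agreed in direction, the direction differed with antisense load. Of the 19683 transcripts tested, 40.2% had log2 ratios of 1 sign in the 3 pairs. Among those with at least 100 CPM of colchicine-treated load it was 40.9%, and among those under 1 CPM 40.8%. In the loaded class 38.4% were higher in all 3 pairs and 2.50% lower. In the unloaded class 13.9% were higher in all 3 pairs and 27.0% lower. At a mean of 1 to 10 CPM the pairs agreed for 42.7% of those with at least 100 CPM of load, with 41.7% higher and 1.09% lower. They agreed for 35.6% of those under 1 CPM, with 18.9% higher and 16.6% lower. Agreement also ran with level, at 30.6% under 1 CPM on average and 54.8% at 100 CPM and over. These splits follow the class medians given above. The filter on low counts can keep a transcript through 1 group alone, so they are descriptions. The size of the change agreed less between pairs in loaded transcripts. Across the 1441 transcripts of at least 100 CPM of load, the Spearman correlation of log2 ratios was 0.14 between pairs 1 and 2, 0.09 between 1 and 3, and 0.02 between 2 and 3. Across the 13147 unloaded ones it was 0.32, 0.29 and 0.13. Level differs between these classes, and tested transcripts under 1 CPM on average gave only 0.09, 0.05 and -0.01. At a mean of 1 to 10 CPM the loaded ones gave 0.14, 0.07 and -0.04, and the unloaded ones 0.31, 0.23 and 0.09. The pairs share no library, and the transcripts are not independent replicates.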

How the data were processed

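The authors deposited estimated counts per transcript and replicate, not normalized, per the file headers. The submitters' processing notes name Trimmomatic 0.33, RSEM 1.2.31 and Bowtie 1.1.2 for the mRNA libraries, with no role. Estimated counts share reads among similar transcripts, so near-identical copies are uncertain. All 16 value columns matched a sample by name. Counts were rounded for edgeR 4.0.16 (R 4.3.3), filtered with filterByExpr, scaled by TMM, and tested two-sided with Benjamini-Hochberg adjustment. DESeq2 1.42.0 was an alternative. On simulated data with 200 of 19683 transcripts changed by 2 (log2), the blocked fit recovered 200 with 10 false calls and the unblocked fit 200 with 0. The changed transcripts had at least 1 CPM, and each transcript had a random shift by replicate number. The simulation used the blocked fit's common dispersion of 0.00999, whereas the unblocked fit of the real data had 0.0370. It checks that the code finds large changes and gives no error rate for the real libraries. Class medians used Python 3.11.15 (pandas 2.3.3, scipy 1.17.1, matplotlib 3.10.9) and a pseudocount of 0.5 CPM. Antisense load is CPM of the antisense total, 16628518 counts in the colchicine-treated and 19458021 in the wild-type Hywi library. Named transcripts had 1 direction in all pairs, at least 1 CPM on average and an adjusted p below 0.05. The labels do not say what a replicate number marks. The numbers were taken as pairs by the plan of the comparison, not because of a test. Same-numbered libraries deviated together by 0.71, 0.35 and 0.35, and those of other numbers by -0.52 to 0.29. Deviations from a mean of 3 libraries sum to 0, so a distinct number 1 in both groups lowers its values with other numbers. These values thus set pairs 2 and 3 little apart from the other combinations of numbers 2 and 3. Nothing says the libraries came from separate broods, so p-values measure only the spread between these samples. Members, classes, lists and the paired fit were chosen with earlier results of these data known. Floors of 3 counts cover counting error only.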

Additional observations from a re-analysis of the deposited data

How the results depend on the processing

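The counts of called transcripts depended on the settings. Without the replicate block 0 were higher and 0 lower. With the block and 19683 tested, DESeq2 called 153 higher and 41 lower. Library totals gave 123 and 2, RLE size factors 247 and 37, and a threshold of 0.01 133 and 5. No filter on low counts gave 333 and 55 of 29166 tested, and a filter of at least 1 CPM on the mean 203 and 12 of 15822. The filter changes the number tested, so these counts cannot be set directly against the 231 and 18. Leaving out a pair gave 219 to 365 higher and 16 to 105 lower transcripts with the block. Without the block, an alternative chosen after seeing the data, it gave 0 to 35 higher and 0 to 1 lower. The 2-pair fits leave few residual degrees of freedom. The cause of these differences was not tested. The share of transcripts that moved the same way in the 3 pairs was 46.1% over those with a mean of at least 10 CPM, in place of 40.2%. The mean differences by level and by load kept their direction in every alternative run and moved by less than 1 SD between pairs. Leaving out a pair gave 0.11 to 0.24 for level, 0.15 to 0.34 for load in either Hywi library, and 0.08 to 0.21 for load at matched level, with the lowest value without pair 3 in each case. A pseudocount of 0.1 CPM gave 0.25 for level. With knockdown means in place of pairs (no replicate block) these were 0.19, 0.26, 0.26 and 0.16. Depth limits the lowest classes, where 3 counts are 0.109 to 0.135 CPM.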
